A study of Homo sapiens with 3 samples.

Results

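The levels of 10 autophagy genes were followed in H660 cells treated with the HSP70 inhibitor JG231. The genes were chosen by symbol from a table of 58735 gene rows, by a rule that uses no measured value although earlier results of these data were known, and each symbol matched 1 row. They comprise the cargo receptors SQSTM1, NBR1 and OPTN, the ATG8 family members MAP1LC3B and GABARAPL1, the core machinery genes ULK1, BECN1, WIPI1 and ATG5, and the transcription factor gene TFEB. RNA-seq was performed on 3 libraries of parental H660 cells, 1 each after DMSO vehicle, 2.5 μM JG231 and 5 μM JG231 for 24 h. H660 is an established human neuroendocrine prostate cancer line, JG231 binds HSP70 at an allosteric site, and all values come from this single line in culture. With 1 library per condition there were no replicates, and neither a standard deviation nor a p-value can be given. Both JG231 libraries were set against the same DMSO library, so the results at the 2 doses are not independent of each other.

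Macroautophagy delivers cytoplasmic cargo to the lysosome inside a double-membrane vesicle, the autophagosome. An initiation kinase complex and a class III PI3-kinase complex start the membrane, conjugation enzymes attach ATG8 family proteins to it, and receptors that bind both ubiquitin and ATG8 proteins bring in the cargo. The receptors are themselves degraded with the cargo, and the MiT/TFE transcription factors, TFEB among them, control many autophagy and lysosome genes. These steps are largely regulated on proteins, by phosphorylation, lipidation and turnover, and transcript levels do not measure how fast cargo is degraded.

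The deposited unit is FPKM, fragments scaled to the length of the gene and to the total of the library, and changes are given on the log2 scale, as the ratio of the JG231 level to the DMSO level after 0.1 was added to each. A gene was called higher or lower when its FPKM was over 1 in either library compared and its log2 change was over 0.25 in size. Since 1 fragment is worth a fixed amount in each library, the fragments behind the values of all 10 genes could be recovered, from totals of 16.1 M in DMSO, 20.4 M at 2.5 μM and 24.1 M at 5 μM. The 95% counting intervals given below are exact binomial intervals of the plain FPKM ratio and cover counting error only. No replicate error exists, so each change is set beside a spread, the robust SD of the log2 ratio of the 5 μM to the 2.5 μM library among the 500 genes of most similar mean FPKM. This spread also contains any true difference between the doses, and it holds no difference between the DMSO and the JG231 libraries. Mitochondrial transcripts made up 39.8% of the FPKM in DMSO and 24.1% and 28.8% at 2.5 and 5 μM JG231, and genes with long transcripts were lower in both JG231 libraries than genes with short ones. The median log2 change at 5 μM was 0.61 in the decile of shortest protein-coding transcripts and -0.52 in the decile of longest ones. The neuroendocrine markers CHGA, SYP, ENO2, NCAM1 and INSM1 were all detected, with a summed FPKM of 120.2, 80.0 and 69.2 across the 3 libraries, and the labels call the line a prostatic adenocarcinoma. CHGA was at 46.0, 15.0 and 12.7 FPKM, SYP at 17.7, 13.0 and 14.8, and INSM1 at 13.4, 16.3 and 10.5, so the markers did not all follow the sum. Of the stroma and blood markers PTPRC, VIM, COL1A1 and PECAM1, PTPRC and PECAM1 were listed at 0, and the sum of 3.34, 9.18 and 7.65 was mostly VIM, at 2.52, 8.43 and 6.38. The part of these differences in the results below was not tested, and in bulk RNA fewer cells expressing a gene cannot be told apart from less RNA per cell.

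The sequence just around the transcription start was compared among the genes, because several of them moved together. RefSeq windows on GRCh38.p14, from 250 bases before to 50 bases after each start, were matched for 10 of 10 genes and searched on both strands for CACGTG (the E-box core of the element bound by TFEB), TGACNNNGC (the core of the antioxidant response element) and TGATGNAAN (the composite core of C/EBP and ATF factors). The letters CACGTG occurred in 0 of 10 genes against 8.77% of 27305 symbols, TGATGNAAN in 0 of 10 against 4.45%, and TGACNNNGC in 1 of 10 against 16.1%. The match lies in MAP1LC3B, at position -46 from the start on the plus strand. It is shown first, with the matching letters in capitals, on chr16:87392280-87392309, plus strand. OPTN (chr10:13099982-13100081, plus strand) and TFEB (chr6:41735609-41735708, minus strand) are shown as the 100 bases before a start that hold none of the 3 motifs, and both stretches lie within their genes as annotated but outside any exon. VPS11 (chr11:119067718-119067817, plus strand), CTSA (chr20:45891290-45891319, plus strand) and ATP6V1G1 (chr9:114587699-114587728, plus strand) are shown as autophagy or lysosome genes outside the set that do carry the E-box core. All are written 5′ to 3′ on the strand of the gene. The 100 bases before these starts overlap annotated exons of the same gene by 100 bp in MAP1LC3B and CTSA and by 63 bp in ATP6V1G1, for which 30 bases are shown. In VPS11 the second E-box core shares its last letters with a match to TGACNNNGC.
MAP1LC3B: gcgagtcaccTGACCAGGCtgcgggctgag
OPTN: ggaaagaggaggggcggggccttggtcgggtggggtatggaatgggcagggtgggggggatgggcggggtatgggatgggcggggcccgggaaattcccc
TFEB: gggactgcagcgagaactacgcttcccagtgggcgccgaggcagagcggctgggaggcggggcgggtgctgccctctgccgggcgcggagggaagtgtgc
VPS11: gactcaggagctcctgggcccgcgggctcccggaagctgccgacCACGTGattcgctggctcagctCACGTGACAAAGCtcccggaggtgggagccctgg
CTSA: tgtCACGTGgcgccggagttCACGTGactc
ATP6V1G1: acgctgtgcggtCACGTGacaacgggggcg
A match describes these letters and is not evidence of binding, and the absence of a match applies to this window alone.

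Of the 10 genes, 8 were higher and 1 was lower at 2.5 μM, and 9 were higher and 1 was lower at 5 μM. These counts include TFEB, which was at 0.748 FPKM in DMSO and passed the FPKM filter only through its JG231 levels. Among all 15746 genes tested at 2.5 μM, 36.4% were higher and 43.4% were lower by the same rule, and among 15765 genes at 5 μM these shares were 36.5% and 45.1%. At a log2 threshold of 1, SQSTM1, GABARAPL1 and TFEB were higher at 2.5 μM, against 12.9% of all genes, and none of the 10 was lower, against 21.7%. At 5 μM 5 genes passed this threshold upwards, namely SQSTM1, OPTN, MAP1LC3B, GABARAPL1 and TFEB, against 14.7% of all genes, and again none passed it downwards, against 24.3%. With the length trend removed, SQSTM1 and TFEB passed it at 2.5 μM and SQSTM1, OPTN and TFEB at 5 μM, while MAP1LC3B, at 0.88, and GABARAPL1, at 0.71, did not pass it at 5 μM. With mitochondrial and small RNA genes left out of the scaling, SQSTM1 and TFEB alone of the 10 passed it at either dose. The median log2 change of the 10 genes was 0.86 at 2.5 μM and 0.99 at 5 μM, while that of all genes tested was -0.08 and -0.11. ULK1 was the gene that was lower at both doses, and WIPI1 passed the threshold of 0.25 at 5 μM but not at 2.5 μM.

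**Figure D1:**
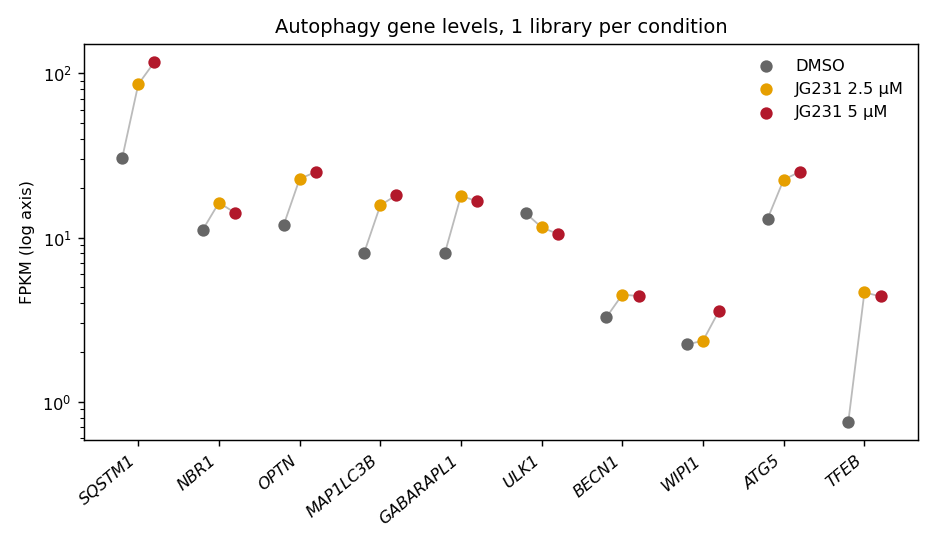
FPKM of the 10 autophagy genes (log axis) in the DMSO (grey), 2.5 μM JG231 (orange) and 5 μM JG231 (red) libraries, 1 point per library with no error bars, joined within a gene. SQSTM1 was the most abundant in every library, from 30.5 in DMSO to 117.4 at 5 μM, TFEB started lowest at 0.748, and ULK1 is the gene whose DMSO point lies above both JG231 points.

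SQSTM1 (ENSG00000161011, chr5:179806398-179838078, plus strand) encodes p62, the receptor that binds polyubiquitin chains and clusters ubiquitinated proteins for autophagy. Its FPKM was 30.5 in DMSO, then 85.9 at 2.5 μM and 117.4 at 5 μM, from 3750, 13397 and 21620 fragments. Both JG231 libraries therefore lay above DMSO, and the 5 μM library lay above the 2.5 μM one. The level was 2.82-fold that of DMSO at 2.5 μM, a log2 change of 1.49 with a counting interval of 1.44 to 1.55, and 3.85-fold at 5 μM, a log2 change of 1.94 with an interval of 1.90 to 1.997. At genes of this abundance the spread was 0.21. Of all genes tested, 4.83% changed further upwards at 5 μM and 6.83% did so at 2.5 μM.

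The other receptors of the set, which like p62 carry a ubiquitin-binding domain and an ATG8-binding motif, were also higher with JG231 but by less. OPTN (ENSG00000123240, chr10:13099449-13138308, plus strand), the receptor known for damaged mitochondria and intracellular bacteria, was at 11.8 FPKM in DMSO and 22.8 and 25.1 at 2.5 and 5 μM JG231. These values rest on 979, 2384 and 3104 fragments and give log2 changes of 0.94 (counting interval 0.84 to 1.05) and 1.08 (0.98 to 1.19), against a spread of 0.27. Of all genes tested, 14.2% changed further upwards than OPTN at 2.5 μM and 13.2% did so at 5 μM. NBR1 (ENSG00000188554, chr17:43170481-43211689, plus strand), a receptor that acts together with p62 in clustering ubiquitinated cargo, was at 11.2 FPKM in DMSO against 16.3 at 2.5 μM and 14.1 at 5 μM. It was highest at the lower dose. Its log2 change was 0.54 (0.46 to 0.64) at 2.5 μM and 0.34 (0.25 to 0.43) at 5 μM, with a spread of 0.29, and at 5 μM it became -0.04 once mitochondrial and small RNA genes were left out of the scaling. SQSTM1 thus made up more of the summed FPKM of the 3 receptors with JG231 than with DMSO.

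MAP1LC3B and GABARAPL1 encode members of the ATG8 family, the small ubiquitin-like proteins that are joined to phosphatidylethanolamine in the growing membrane and that the receptors bind. MAP1LC3B (ENSG00000140941, chr16:87383953-87404779, plus strand), whose product LC3B is the usual marker of autophagosomes, was at 8.10 FPKM in DMSO, then 15.7 at 2.5 μM and 18.1 at 5 μM. Its log2 change was 0.95 (0.83 to 1.09) and 1.15 (1.04 to 1.29), from 692, 1701 and 2320 fragments. GABARAPL1 (ENSG00000139112, chr12:10212458-10223128, plus strand), of the GABARAP branch of the family, was at nearly the same level in DMSO, 8.05 FPKM, and reached 18.0 at 2.5 μM and 16.6 at 5 μM. The log2 changes were 1.15 (1.02 to 1.31) and 1.03 (0.90 to 1.19), from 529, 1499 and 1630 fragments. Both genes thus lay at least 1.94-fold above DMSO in each JG231 library, while the spread at their abundance was 0.30 for MAP1LC3B and 0.29 for GABARAPL1. Of all genes tested at 5 μM, 11.9% changed further upwards than MAP1LC3B and 14.0% further than GABARAPL1. The window before the MAP1LC3B start is the one that held an antioxidant response element core, and the stretch shown above lies over an annotated exon of the gene.

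The core machinery genes did not move as one. ULK1 (ENSG00000177169, chr12:131894622-131923150, plus strand), the kinase that opens the pathway, was at 14.1 FPKM in DMSO and 11.5 and 10.5 at 2.5 and 5 μM JG231. Both JG231 libraries were below DMSO, by log2 changes of -0.29 (-0.39 to -0.20) and -0.42 (-0.52 to -0.33), from 1728, 1785 and 1927 fragments. The change at 2.5 μM was within the spread of 0.30 and that at 5 μM was beyond it, and 39.4% of all genes tested lay further down at 5 μM. ULK1 has a long transcript, and with the length trend removed its log2 changes were -0.18 at both doses, which does not pass the threshold. BECN1 (ENSG00000126581, chr17:42810134-42833350, minus strand), the Beclin 1 subunit of the class III PI3-kinase complex, was at 3.26 FPKM in DMSO against 4.49 at 2.5 μM and 4.40 at 5 μM. Its log2 changes of 0.45 (0.27 to 0.66) and 0.42 (0.24 to 0.63), from 336, 587 and 679 fragments, passed the rule but were within the spread of 0.53 at this abundance. The call at 5 μM was lost with the length trend removed, at 0.14, and the calls at both doses were lost with mitochondrial and small RNA genes left out of the scaling, at 0.17 and 0.05. Both JG231 values of BECN1 were above the DMSO value and close to each other.

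WIPI1 (ENSG00000070540, chr17:68420948-68457513, minus strand), which binds the lipid made by the class III PI3-kinase, was at 2.23 FPKM in DMSO, then 2.35 at 2.5 μM and 3.59 at 5 μM. The DMSO and 2.5 μM libraries were alike and the 5 μM library stood above both. The log2 change was 0.07 (-0.27 to 0.43) at 2.5 μM, not distinguishable from 0 at a depth of 122 and 163 fragments, and 0.66 (0.38 to 1.005) at 5 μM, with 294 fragments and a spread of 0.53. ATG5 (ENSG00000057663, chr6:106045423-106325791, minus strand), joined to ATG12 in the complex that attaches ATG8 proteins to the membrane, was at 13.0 FPKM in DMSO and 22.6 and 25.1 at 2.5 and 5 μM JG231. Its log2 changes of 0.79 (0.69 to 0.89) and 0.94 (0.85 to 1.05), from 1184, 2598 and 3420 fragments, were beyond the spread of 0.27. Of all genes tested, 17.7% changed further upwards than ATG5 at 2.5 μM and 15.8% did so at 5 μM. ATG5 thus came closer in size of change to MAP1LC3B than to the other core genes of the set.

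TFEB (ENSG00000112561, chr6:41683978-41736259, minus strand), the transcription factor that drives lysosome and autophagy genes when it enters the nucleus, was the lowest of the 10 genes in DMSO. Its FPKM was 0.748 there, from 68 fragments, 4.63 at 2.5 μM, from 533, and 4.38 at 5 μM, from 595. The 2 JG231 libraries were near each other and far above DMSO. The level was 6.19-fold and 5.85-fold that of DMSO, and the log2 changes were 2.48 (2.26 to 3.02) and 2.40 (2.18 to 2.93) against a spread of 0.53. On this scale these were the largest changes of the set at both doses. Of all genes tested, 3.45% changed further upwards at 2.5 μM and 3.72% did so at 5 μM. Because TFEB was low in DMSO, its log2 change depends on the pseudocount, with 1.62 at 5 μM when 1 was added to each value and 2.53 when 0.01 was added. With 1 added, SQSTM1, at 1.91, had the larger change at 5 μM.

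**Figure D2:**
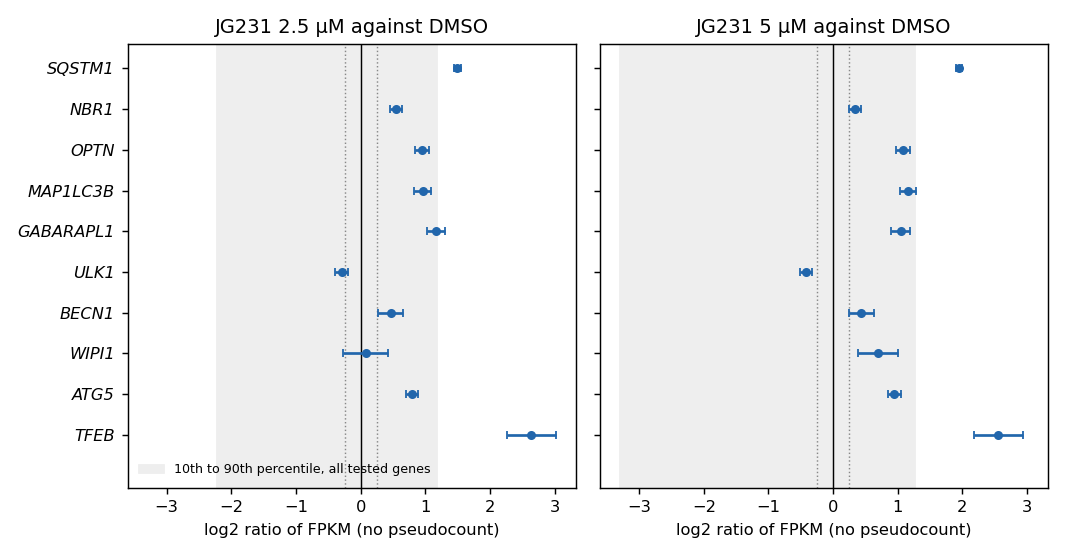
Log2 ratio of FPKM with 95% counting intervals (bars) for the 10 genes at 2.5 μM (left) and 5 μM (right) against DMSO, with the grey band from the 10th to the 90th percentile of all genes tested and dotted lines at the threshold of 0.25 in both directions. SQSTM1 and TFEB lie to the right of the band in both panels, ULK1 lies to the left of 0, and the interval of WIPI1 at 2.5 μM spans 0.

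Compared with each other, the 2 JG231 libraries differed in few of the 10 genes. SQSTM1 and WIPI1 were higher at 5 μM than at 2.5 μM, 0 were lower and 8 passed in neither direction, against 26.8% higher and 30.1% lower among 14197 genes tested. The difference was 0.45 (0.42 to 0.48) for SQSTM1, which was beyond the spread of 0.21, and 0.59 (0.33 to 0.90) for WIPI1, against 0.53. MAP1LC3B, ATG5 and OPTN had differences of 0.21, 0.16 and 0.14, each smaller than the spread. NBR1 had the lowest difference, -0.21, and GABARAPL1 and ULK1 had -0.12 and -0.13, again within the spread. The intervals of BECN1 (-0.19 to 0.13) and TFEB (-0.25 to 0.09) included 0. The count depends on the scaling, because the median gene lay at -0.19 between the doses when the libraries were brought to a common sum, and 4 of the 10 genes were then lower at 5 μM.

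**Figure D3:**
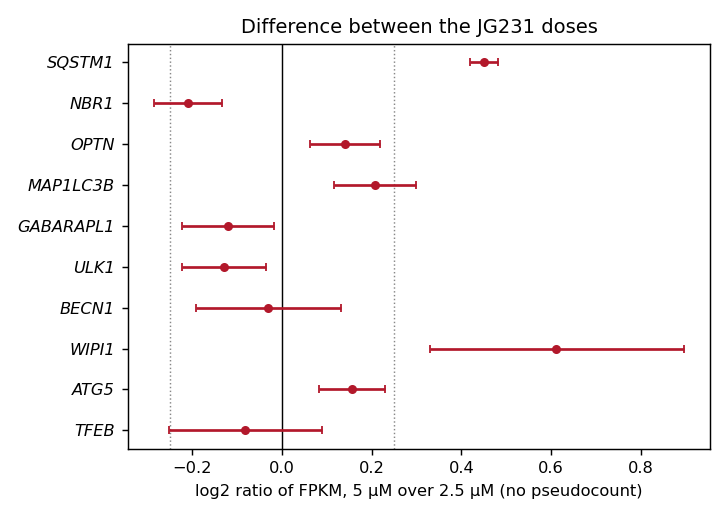
Log2 ratio of FPKM at 5 μM over 2.5 μM JG231 for the 10 genes, with 95% counting intervals as bars and dotted lines at 0.25 in both directions. The points of SQSTM1 and WIPI1 lie beyond the right dotted line, and those of the other 8 genes lie between the lines.

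The order of the levels changed with treatment. In DMSO it ran from SQSTM1 through ULK1, ATG5, OPTN, NBR1, MAP1LC3B, GABARAPL1, BECN1 and WIPI1 to TFEB. From ULK1 to NBR1 the levels ran from 14.1 to 11.2 FPKM, and MAP1LC3B and GABARAPL1 were at 8.10 and 8.05. The spread used above does not cover differences between genes, so the order of such close levels is uncertain. At 5 μM ULK1 had moved from rank 2 to rank 7, below ATG5, OPTN, MAP1LC3B, GABARAPL1 and NBR1, and TFEB from rank 10 to rank 9, above WIPI1. The deposited FPKM divides by the length of all annotated exons of a gene, which exceeds that of a single transcript. Per kilobase of the canonical transcript, chosen as a second scale after the data were seen, the level in DMSO was 82.1 for SQSTM1, 23.1 for ATG5, 20.3 for NBR1, 20.2 for ULK1, 20.03 for MAP1LC3B, 17.5 for OPTN, 17.5 for GABARAPL1, 9.90 for BECN1, 3.97 for WIPI1 and 1.81 for TFEB. On this scale SQSTM1 stayed first and the last 3 genes kept their places, while the 6 genes between them were near each other and in another order.

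Reads shared with other genes could touch some of these values. Exons of 8 of the 10 genes overlap exons of a gene on the opposite strand, ULK1 and ATG5 being the exceptions, and whether strand was used in counting is not stated. The widest overlap was that of SQSTM1 with MRNIP, over 1582 bp, and MRNIP was at 5.34, 3.43 and 4.36 FPKM. SQSTM1 also shares 105 bp with MGAT4B, which was at 34.8, 49.7 and 57.6 FPKM, in the same order as SQSTM1. The part of shared reads in these values was not tested. BECN1 shares 300 bp with PSME3, at 20.3, 19.4 and 26.0 FPKM. The pseudogenes SQSTM1P1, MAP1LC3BP1, BECN1P2 and GABARAPL3 were listed at 0 in all 3 libraries, and the near-identical copy MAP1LC3B2 was at 1.41, 1.14 and 2.89 FPKM, from 40, 41 and 123 fragments, so its division from MAP1LC3B is uncertain.

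The pathway around the 10 genes was described with a list of 125 autophagy and lysosome genes in 11 roles, the 10 genes included, of which 119 were tested against DMSO. At 2.5 μM 58 were higher and 31 lower with a median log2 change of 0.24, and at 5 μM 64 were higher and 31 lower with a median of 0.33. Over all genes tested, 36.4% were higher and 43.4% lower at 2.5 μM, and 36.5% and 45.1% at 5 μM. Without the 10 genes, 50 of 109 were higher and 30 lower at 2.5 μM, and 55 were higher and 30 lower at 5 μM, with medians of 0.19 and 0.26. Between the doses 29 of 118 were higher at 5 μM and 17 were lower, where all genes had shares of 26.8% and 30.1%. These counts rest on the scaling, since 36 were higher and 47 lower at 5 μM, and the list's median was -0.04, when mitochondrial and small RNA genes were left out of the scaling. The median of all genes with a mean FPKM of 1 or more was then itself at -0.38. The counts by role that follow leave out the 10 genes and are to be read against the all-gene shares just given, and each role holds few genes. Counts over the same genes with the trend in transcript length removed are given beside them where they differ.

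**Figure D4:**
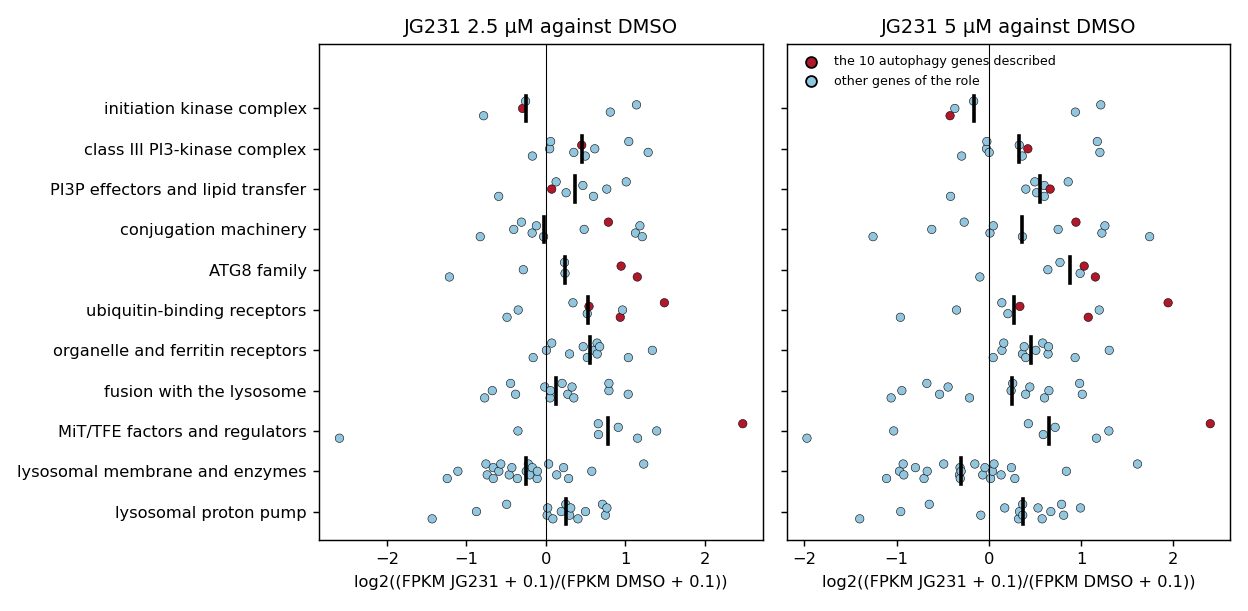
Log2 change at 2.5 μM (left) and 5 μM (right) of each tested gene of the pathway list, by role, with the 10 genes in red, the other genes in blue and the median of each role as a black bar. The median of the lysosomal membrane and enzyme genes lies left of 0 in both panels, at -0.25 and -0.30, and TFEB is the rightmost point of each panel.

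Around ULK1, the other subunits of the initiation complex went both ways, with 2 of 4 higher and 2 lower at 2.5 μM, and 2 higher and 1 lower at 5 μM. Removal of the length trend gave 2 higher and 1 lower at 2.5 μM, and 3 higher and 0 lower at 5 μM. ATG101 had log2 changes of 1.14 and 1.21 at 2.5 and 5 μM and the scaffold ATG13 had 0.81 and 0.94, while the large scaffold RB1CC1, also called FIP200, had -0.25 and -0.37. With the length trend removed RB1CC1 was at -0.061 and -0.0052 and was no longer called at either dose, like ULK1. In the class III PI3-kinase complex around BECN1, 5 of 8 other genes were higher and 0 lower at 2.5 μM, and 4 were higher and 1 lower at 5 μM, where 4 were higher and 0 lower once the length trend was removed. The regulatory subunits UVRAG, at 1.29 and 1.20, and NRBF2, at 1.04 and 1.18, changed more than BECN1, and the ULK1 cofactor AMBRA1 was at 0.62 and 0.36. At 5 μM the change of AMBRA1 fell just below 0 once mitochondrial and small RNA genes were left out of the scaling. Among the genes that act on the lipid product with WIPI1, 5 of 7 were higher and 1 lower at 2.5 μM, and 6 were higher and 1 lower at 5 μM. Of these 7 genes, 4 were higher and 1 lower at 2.5 μM, and 5 higher and 0 lower at 5 μM, with the length trend removed. WIPI2 had 0.60 at both doses, WDR45 had 0.26 and 0.60 but -0.028 and 0.21 with the trend removed, and ZFYVE1, known as the marker DFCP1 of forming autophagosomes, had 1.01 and 0.86.

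The conjugation enzymes around ATG5 held genes at both ends. Without ATG5, 4 of 10 were higher and 3 lower at 2.5 μM, and 5 were higher and 3 lower at 5 μM. The balance at 2.5 μM turned to 3 higher and 4 lower with the length trend removed. The ATG8 protease gene ATG4D was at 14.4 FPKM in DMSO against 33.4 at 2.5 μM and 48.3 at 5 μM, with log2 changes of 1.21 and 1.74. ATG16L1, the partner of ATG12-ATG5 on the membrane, had 1.18 and 1.26, whereas its paralog ATG16L2 had -0.82 and -1.25. In the ATG8 family, 0 of the 4 tested genes outside the set were higher and 2 lower at 2.5 μM by the rule, and 3 were higher and 0 lower at 5 μM, or 2 higher and 1 lower with the length trend removed. GABARAP was at 5.76, 6.80 and 9.90 FPKM and GABARAPL2 at 16.5, 19.5 and 25.8, log2 changes of 0.24 and 0.77 and of 0.24 and 0.64. At 2.5 μM both were just short of the threshold. They passed it with the libraries at a common sum, at 0.28 and 0.29, and were at -0.097 and -0.16 with the length trend removed. At 5 μM removal of that trend left GABARAP called, at 0.30, and GABARAPL2 no longer called, at 0.072. MAP1LC3A was at 9.95, 4.23 and 9.29 FPKM, below DMSO at 2.5 μM and near it at 5 μM, from 141, 76 and 197 fragments. Its change at 5 μM was -0.10, and -0.67 with the length trend removed, which the rule calls lower. MAP1LC3B2, called lower at 2.5 μM, had a counting interval there of -0.97 to 0.36, which includes 0. MAP1LC3C stayed under 1 FPKM, with 10, 12 and 16 fragments, and was not tested.

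Among the ubiquitin-binding receptors other than SQSTM1, NBR1 and OPTN, 3 of 5 were higher and 2 lower at 2.5 μM, and 1 was higher and 2 lower at 5 μM. Removal of the length trend left 1 of them lower at 2.5 μM. CALCOCO2, also called NDP52, was at 8.03, 11.6 and 8.87 FPKM, and TAX1BP1 at 20.7, 26.2 and 23.9, so that these 2 genes, like NBR1, had their highest value at 2.5 μM. TOLLIP was at 6.39, 12.6 and 14.8 FPKM, log2 changes of 0.97 and 1.20. The kinase gene TBK1, whose product phosphorylates OPTN and p62, was lower by the rule, at -0.35 in both libraries, and the large adaptor gene WDFY3, also called ALFY, had -0.49 and -0.96. WDFY3 was at -0.090, no longer called, and -0.28 with the length trend removed. Of the receptors for organelles and ferritin, 9 of 12 were higher at each dose and 0 were lower, and 7 were higher at each dose with the length trend removed. STBD1, a glycogen receptor, had 1.34 and 1.31, from a DMSO level of 0.545 FPKM whose fragments could not be recovered as whole numbers, and 0.71 and 0.69 with a pseudocount of 1. The reticulophagy receptor gene TEX264 had 0.52 and 0.94, and PHB2, a receptor of the inner mitochondrial membrane, had 0.60 and 0.65. With the length trend removed TEX264 was not called at 2.5 μM, at 0.19, nor PHB2 at 5 μM, at 0.196.

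Of the other MiT/TFE genes and their regulators beside TFEB, 5 of 7 tested were higher and 2 lower at each dose, with medians of 0.66 and 0.59, and 1 was lower at 2.5 μM with the length trend removed. TFE3, the paralog of TFEB, was at 11.7 FPKM in DMSO, then 26.1 at 2.5 μM and 26.3 at 5 μM, with log2 changes of 1.15 and 1.17, so it was the more abundant of the pair in every library. FLCN, the folliculin gene, whose product keeps both factors in the cytoplasm in fed cells, was at 3.13, 8.39 and 7.85 FPKM. ZKSCAN3, a repressor of autophagy and lysosome genes, was at 4.80, 0.710 and 1.15 FPKM, log2 changes of -2.60 and -1.97. Its fragments were recovered as 187, 35 and 67 at a length of 2421 bp. This length is shorter than its canonical transcript of 4687 bp, so the true counts may be larger. ZKSCAN3 had the lowest change of the tested genes of the list at both doses.

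Lysosomal genes went both ways. Of 23 tested genes of lysosomal membrane proteins and enzymes, 3 were higher and 11 lower at 2.5 μM, and 3 were higher and 12 lower at 5 μM, with medians of -0.25 and -0.30, beside 43.4% and 45.1% lower over all genes tested, and 2 were higher at each dose and 15 and 14 lower with the length trend removed. The protease genes CTSB, at 7.09, 3.24 and 3.23 FPKM, and CTSA, at 16.4, 6.87 and 8.32, were lower in both JG231 libraries, while the sialidase gene NEU1 was higher, at 6.73, 16.0 and 20.8. Of 15 genes of the lysosomal proton pump, 8 were higher and 3 lower at 2.5 μM, and 10 were higher and 3 lower at 5 μM. With the length trend removed, 4 were higher and 3 lower at each dose. ATP6V1G1 had 0.71 and 0.99, whereas ATP6V0A1 had -1.43 and -1.40 and ATP6AP2 had -0.87 and -0.95. Among the genes for fusion with the lysosome, 6 of 14 were higher and 4 lower at 2.5 μM, and 7 were higher and 5 lower at 5 μM, against 6 and 3 and then 8 and 5 with the length trend removed. The SNARE gene YKT6 had 0.79 and 1.01, and in the tethering complexes VPS11 had 1.04 and 0.98 and VPS33A had -0.44 and -0.94.

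Among 100 genes of the list with a RefSeq window, 22 held the E-box core CACGTG, a share of 22% beside 8.77% of all symbols. At 5 μM 11 of these 22 were higher and 6 lower, with a median log2 change of 0.33, and of the 72 tested genes without it 44 were higher and 17 lower, with a median of 0.37, beside 36.5% higher and 45.1% lower over all genes tested. VPS11 and ATP6V1G1, whose windows are printed above, were higher at 5 μM and CTSA, with 2 copies of the letters, was lower. Of the 9 lysosomal membrane and enzyme genes with the core, 2 were higher and 5 lower at 5 μM, and all 3 proton pump genes with it were higher, of which 1 remained called with the length trend removed. The letters occurred among genes of both directions, and the TFEB windows held none. Whether these letters had a part in the changes was not tested.

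**Figure D5:**
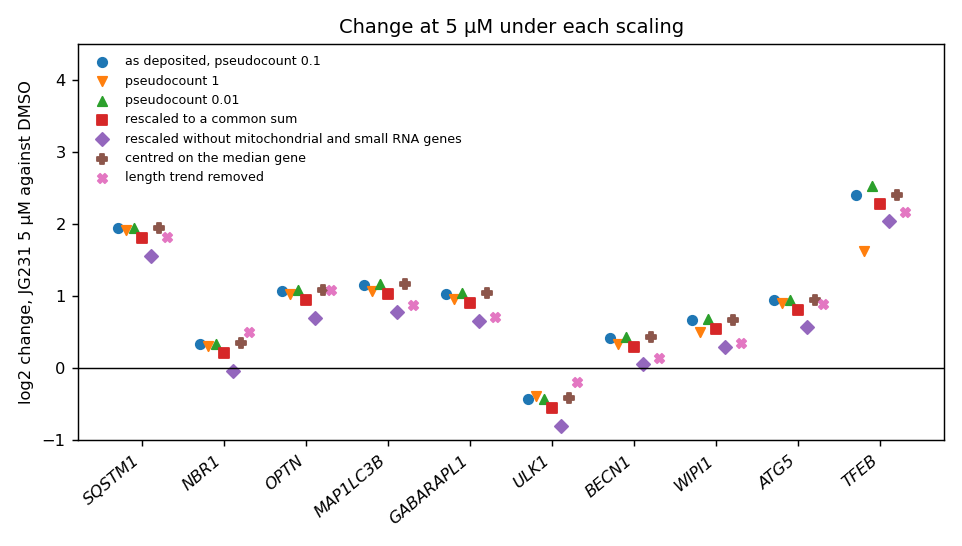
Log2 change at 5 μM against DMSO of the 10 genes under the scale used and 6 other settings, 1 symbol per setting. Of the 10 genes 8 stay above 0 and ULK1 stays below 0 under every setting drawn, whereas NBR1 falls to -0.04 without mitochondrial and small RNA genes.

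Other scalings changed the size of the values and, in part, their order. Leaving mitochondrial and small RNA genes out of the scaling put the median of all genes at -0.28 at 2.5 μM and at -0.38 at 5 μM, and each of the 10 genes was lowered with it. With the length trend removed, MAP1LC3B, at 0.88, fell below OPTN, at 1.08, and ATG5, at 0.90, at 5 μM. Over the 7 settings SQSTM1 ranged from 1.56 to 1.95 at 5 μM, MAP1LC3B from 0.78 to 1.16, GABARAPL1 from 0.66 to 1.04, OPTN from 0.70 to 1.09 and ATG5 from 0.57 to 0.95. TFEB ranged from 1.62 to 2.53, ULK1 from -0.80 to -0.18, WIPI1 from 0.30 to 0.69 and BECN1 from 0.05 to 0.43. Their canonical transcripts, of 1883 to 5322 bases with a median of 2586.5, were somewhat shorter than the median of 3297.5 over 11200 protein-coding genes. In the direction of the change, 9 of the 10 genes at 5 μM were thus the same under every setting, NBR1 being the exception, and at 2.5 μM WIPI1, which was not called there, was the gene whose sign varied. A pseudocount cannot turn a sign. Centring could hardly do so, since the median gene already lay at 0 at 2.5 μM and at -0.008 at 5 μM. Only the rescalings and the removal of the length trend could change a direction.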

How the data were processed

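RNA-seq of 3 H660 libraries was used, grouped by the treatment in the labels; dose and time follow the study's methods. The authors deposited FPKM values per gene in 1 table, made with HISAT and StringTie per the methods; the submitters' processing notes also list HISAT2 and featureCounts, and GRCh38. Versions and annotation release are not given in the sources used here. Fragments were recovered as FPKM × exon length (GENCODE release 44) over the value of 1 fragment. For all 10 genes and 120 of 125 list genes, a length gave whole numbers in all 3 libraries within 0.001. The smallest such length near the annotated one was used, so the counts of some list genes can be too low. For the 10 genes this length was no shorter than the canonical transcript. Fold changes on the log2(FPKM + 0.1) scale understate changes of low genes. With 1 library per condition no test was made.

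The 10 genes, the pathway list and the motifs were chosen with earlier results of these data known. Named genes outside the 10 were, per role, up to 3 with the largest change at 5 μM, a mean FPKM of at least 1 and the same sign at both doses, plus the ATG8 family and ubiquitin-binding receptors. Transcripts overlapping antisense genes are uncertain. Alternatives were pseudocounts of 1 and 0.01, stricter or no expression filters, a threshold of 1, rescaling, centring and removal of the length trend by lowess (fraction 0.3). Code was tested on simulated data. Some marker genes are not reported here. The versions were scipy 1.17.1, pandas 2.3.3, numpy 2.4.6, matplotlib 3.10.9 and statsmodels 0.14.6, under Python 3.11.15.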

Additional observations from a re-analysis of the deposited data

Results flagged for a closer look

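MAP1LC3B2, the near-identical copy of MAP1LC3B, was picked out because its change against DMSO had opposite directions in the 2 JG231 libraries, namely -0.28 at 2.5 μM and 0.99 at 5 μM on the log2 scale. These values rest on 40 fragments in DMSO, 41 at 2.5 μM and 123 at 5 μM, and with 1 library per condition the difference between the doses was not tested. The counting interval at 2.5 μM was -0.97 to 0.36, which includes 0, and the spread was 0.69. With the length trend removed the changes were -0.72 and 0.37. How reads that fit both copies were assigned is not given in the sources used here.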

How the results depend on the processing

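With 1 library per condition, no alternative could leave out a replicate, and no paired analysis was possible because no replicate numbers exist. Of the values of the 10 genes under other settings, 167 moved by less than the spread, 12 moved by more and 1 called value changed sign; for the other genes these numbers were 540, 51 and 3, and for counts and medians 128, 27 and 1. Centring counts among these settings, although the median gene already lay at 0 at 2.5 μM and at -0.008 at 5 μM against DMSO. The causes were not tested.

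Without mitochondrial and small RNA genes, NBR1 at 5 μM was -0.041, AMBRA1 at 5 μM -0.012, WDR45 at 2.5 μM -0.033 and the pathway median at 5 μM -0.043; the median of the 10 genes at 5 μM was 0.61, the pathway list held 38 higher and 47 lower genes at 2.5 μM and 36 and 47 at 5 μM, and 1 of the 10 genes was lower at 5 than at 2.5 μM. With the length trend removed, WDR45 at 2.5 μM was -0.028 and 0 of the 10 genes were lower at either dose. Rescaled to a common sum, 0 of the 10 were lower at 2.5 μM and 4 were lower at 5 than at 2.5 μM, where the pathway list held 10 higher and 45 lower. With a mean FPKM of at least 5, the pathway list held 19 lower genes at each dose against DMSO and 9 lower between doses, and 1 of the 10 genes was higher between doses. With a threshold of 1, 3 of the 10 were higher at 2.5 μM, 5 at 5 μM and 0 between doses, and 0 were lower at either dose; the pathway list then held 16 higher and 5 lower at 2.5 μM, 17 and 6 at 5 μM, and 2 and 1 between doses. Few fragments stand behind MAP1LC3C, STBD1, MAP1LC3B2, ZKSCAN3 with JG231, whose count is uncertain, and TFEB in DMSO. Values that were not called, such as WIPI1 at 2.5 μM, can change sign within the spread.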
